A study of Homo sapiens with 6 samples.

Results

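The genes described here are the 3 TAM receptor genes TYRO3, AXL and MERTK, their ligand genes GAS6 and PROS1, and TMEM87B, FBLN7 and ZC3H8, which lie next to MERTK on the long arm of chromosome 2. They were taken by symbol from a table of raw read counts that lists 60483 genes, and all 8 were found by Ensembl identifier. The set was proposed with the difference between CDK12 knockout and wild-type cells in view, so the differences of these 8 genes between the groups are given as a description, with no test. RNA from A2780 cells, an established human ovarian carcinoma line, was sequenced in 3 wild-type libraries (WT) and 3 libraries of cells edited with a CRISPR/Cas9 plasmid aimed at exon 1 of CDK12 (KO). Both groups were grown in RPMI medium with serum, and the labels give no treatment for either. The KO cells are 1 clone, and the labels do not say whether libraries of a group came from separate cultures, so a p-value here measures only the spread between these libraries, which may be technical. The paper reports a much higher DNA content and chromosome number in the KO clone than in the parental cells. The groups thus differ in more than the CDK12 edit.

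TAM receptors are receptor tyrosine kinases named after Tyro3, Axl and Mer. Their ligands GAS6 and protein S (the product of PROS1) carry a domain that needs vitamin K for its carboxylation and then binds phosphatidylserine, a lipid that dying cells turn outwards. The ligands thereby bridge dying cells to the receptors. MERTK is best known for the engulfment of dying cells by macrophages and by the retinal pigment epithelium, and AXL and MERTK are also known as survival receptors in tumour cells, ovarian carcinoma included.

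Library totals ran from 11098400 counts (WT replicate 3) to 30899045 counts (WT replicate 2), and 3 counts in a library corresponded to 0.100 to 0.270 CPM (counts per 1000000 counts of the library). Levels below are CPM after TMM scaling, a correction for differences in composition between libraries. CDK12, the targeted gene, had 103, 125 and 117 CPM in WT and 99.0, 93.0 and 102 CPM in KO, a log2 fold change of -0.23 with an edgeR adjusted p of 8.2e-04, so total CDK12 reads lay close together in the groups and are no check of an edit inside exon 1. Of 10 epithelial ovarian markers, 3 (EPCAM, KRT8 and KRT18) passed the filter on low counts, the list sum was 68.5 to 74.1 CPM in WT and 115 to 119 CPM in KO, and KRT7, MUC16 and ESR1 had at most 3 counts in every library. PAX8, CDH1 and the Wilms tumour gene WT1 had at most 6 counts in any library, so this list gives few readable markers of the labelled origin. The paper states that its authors authenticated the line. The macrophage and leukocyte list, of interest since such cells express MERTK, summed to 44.5 to 45.7 CPM in WT and 1.46 to 2.53 CPM in KO, with 3 of 10 genes tested, CD14 called higher and CD163 and MRC1 lower. MRC1 made up most of the WT sum (mean 41.4 CPM, 0.0395 CPM in KO), and without it the other 9 genes summed to 3.14 to 4.32 CPM in WT and 1.46 to 2.49 CPM in KO. Its defining genes PTPRC, CSF1R and TYROBP had at most 3 counts in every library and C1QA had 0. Of 9 fibroblast markers, 8 were tested and 5 were lower in KO (sums of 11223 to 11598 CPM in WT and 8677 to 8955 CPM in KO), and FAP had at most 3 counts in every library. Of 6 endothelial markers, VWF alone was tested and was higher in KO. Over all genes tested, 8.30% were called higher in KO and 7.73% lower. The part of these markers in the levels below was not tested, and in bulk RNA fewer cells of a type and less RNA per cell cannot be told apart.

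MERTK and its 3 neighbours were higher in KO than in WT, by 2.63-fold to 8.42-fold, while the other 2 receptors and the 2 ligands differed by less than 1.5-fold. All 8 genes passed the filter on low counts, each of them in both groups. A gene of the table was called when the edgeR quasi-likelihood test gave a Benjamini-Hochberg adjusted p under 0.05 and the log2 fold change passed 1 in size. By that call, 4 of the 8 were higher in KO and 0 lower, beside 8.30% and 7.73% of the 16198 genes tested. The 4 higher genes are the 4 at the MERTK locus. In 8 of 8 genes the 3 KO values did not overlap the 3 WT values, beside 66.4% of all genes tested. The median log2 fold change of the 8 was 0.91, and that of all genes tested was 0.00. As the set was chosen on this contrast, nothing is read from these counts.

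**Figure D1:**
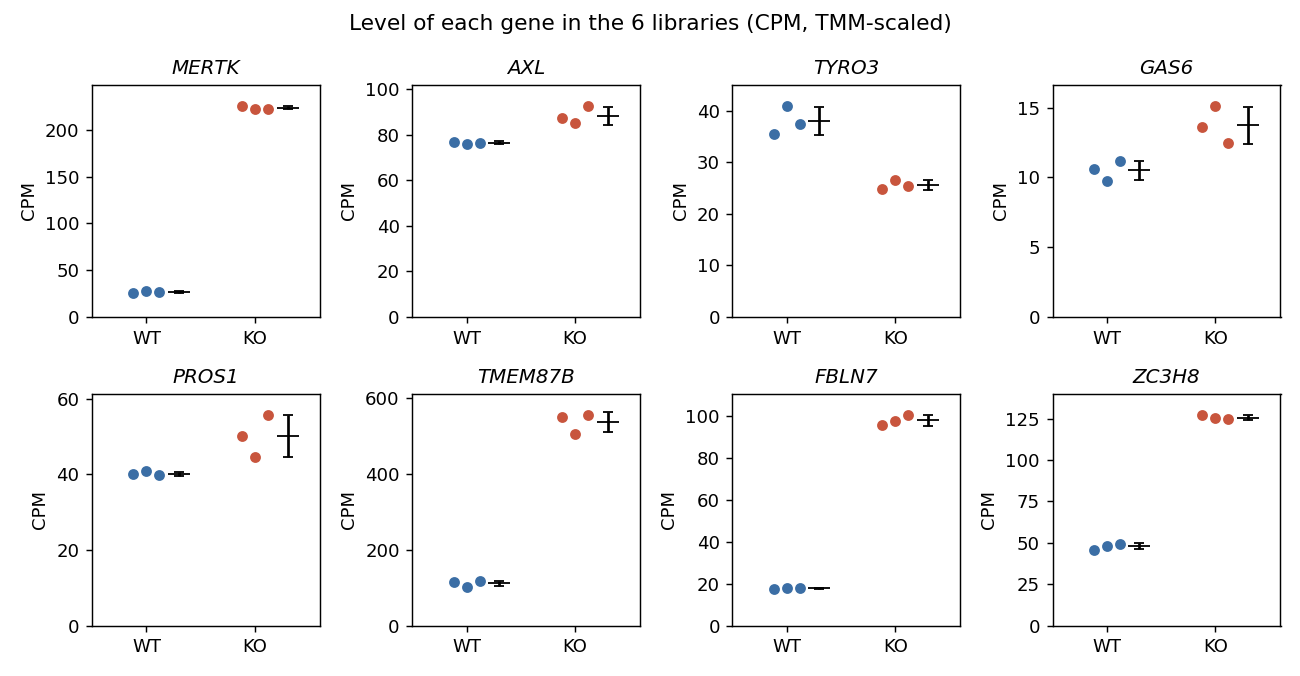
Level of each of the 8 genes in CPM (y axis, from 0, scaled per panel) in the 3 WT and 3 KO libraries; points are libraries, and the bar beside them is the mean with its SD. MERTK lies at 25.4 to 27.6 CPM in WT and 223 to 226 CPM in KO, while the AXL groups lie at 75.8 to 77.0 and 85.1 to 92.7 CPM.

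MERTK (ENSG00000153208, 19 exons in its reference transcript, chr2:111898607-112029561 on the plus strand of GRCh38) had 697, 827 and 296 counts in the WT libraries and 5546, 6004 and 3962 counts in the KO libraries. Scaled for depth these were 25.4, 27.6 and 26.7 CPM in WT and 226, 223 and 223 CPM in KO. Each KO library thus held about the same level, far above every WT library. The means were 26.6 ± 1.09 CPM (SD, n = 3) and 224 ± 1.67 CPM (SD, n = 3), a log2 fold change of 3.07 (SE 0.0550), or 8.42-fold. The KO level varied less between libraries (coefficient of variation 0.747%) than the WT level did (4.09%).

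MERTK has 3 other annotated genes within its span, RN7SL297P, RTRAFP1 and SLC30A6P1, and they held 6, 11 and 0 counts over all 6 libraries. Reads assigned to MERTK itself therefore made up nearly all of what was counted there.

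AXL (ENSG00000167601, chr19:41219223-41261766, plus strand), the receptor most often described in ovarian carcinoma, had 77.0, 75.8 and 76.5 CPM in WT and 87.2, 85.1 and 92.7 CPM in KO. The groups did not overlap, and the gap between them was about as wide as the range of the KO libraries. The means were 76.4 ± 0.643 CPM (SD, n = 3) and 88.3 ± 3.90 CPM (SD, n = 3), a log2 fold change of 0.21 (SE 0.0512).

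TYRO3 (ENSG00000092445, chr15:41557675-41583589, plus strand), the receptor with the best known roles in the nervous system, was the 1 gene of the 8 with a lower mean in KO. Its levels were 35.5, 40.9 and 37.4 CPM in WT and 24.7, 26.6 and 25.4 CPM in KO. All KO libraries lay below all WT libraries, with means of 37.9 ± 2.73 and 25.6 ± 0.961 CPM (SD, n = 3 each). This is a log2 fold change of -0.57, or 1.49-fold higher in WT. The processed pseudogene TYRO3P on the same chromosome held 32 counts over the 6 libraries, too few to be tested.

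GAS6 (ENSG00000183087, chr13:113820549-113864076, minus strand), the ligand that binds all 3 receptors, had the lowest counts of the set, 290, 293 and 124 in WT and 334, 407 and 222 in KO. Its levels were 10.6, 9.78 and 11.2 CPM in WT and 13.6, 15.1 and 12.5 CPM in KO. The gap between the groups was smaller than the range within either, with means of 10.5 ± 0.696 and 13.7 ± 1.33 CPM (SD, n = 3 each) and a log2 fold change of 0.41. GAS6-AS1, an antisense RNA gene that overlaps GAS6, had a log2 fold change of 0.20 (edgeR adjusted p = 0.262) and overlapping groups. The library kit kept the strand, but the strand setting of the counting is not given in the sources used here, so reads of this pair may have been mixed. GAS6-DT, which starts beside GAS6 on the other strand, held 0 counts in each WT library and 4, 5 and 1 in KO, too few to be tested.

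PROS1 (ENSG00000184500, chr3:93873051-93980003, minus strand) encodes protein S, an anticoagulant of plasma and a ligand of TYRO3 and MERTK. It had 40.1, 40.8 and 39.7 CPM in WT and 50.2, 44.5 and 55.7 CPM in KO. The WT libraries lay within about 1 CPM of each other and the KO libraries were all higher but spread widely, with means of 40.2 ± 0.523 and 50.1 ± 5.62 CPM (SD, n = 3 each). The log2 fold change of PROS1 was 0.31, and the median over the 876 genes tested on chromosome 3 was 0.25. For the other chromosomes these medians were -0.07 (chromosome 2), -0.10 (chromosome 13), -0.04 (chromosome 15) and -0.07 (chromosome 19). The part of chromosome number in these values was not tested. The PROS1 pseudogene PROS2P held 2 counts in all.

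Levels of different genes were compared per length, as RPKM, the CPM divided by the length of the gene's merged exons in kilobases. In WT the receptors stood in the order AXL (14.9 ± 0.125 RPKM, SD, n = 3), MERTK (6.43 ± 0.263) and TYRO3 (3.52 ± 0.254), with no overlap between neighbours in that order. In KO the order was MERTK (54.1 ± 0.405), AXL (17.2 ± 0.759) and TYRO3 (2.38 ± 0.0892). MERTK thus moved above AXL, and the ratio of MERTK to AXL went from 0.432 ± 0.0212 in WT to 3.15 ± 0.146 in KO (SD, n = 3 each). The summed receptor level was 24.8 ± 0.387 RPKM in WT and 73.7 ± 0.644 RPKM in KO, which is 2.97-fold. MERTK made up 25.9% ± 0.659 of that sum in WT and 73.4% ± 0.797 in KO, AXL 60.0% ± 1.44 and 23.3% ± 0.851, and TYRO3 14.2% ± 0.800 and 3.22% ± 0.145.

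**Figure D2:**
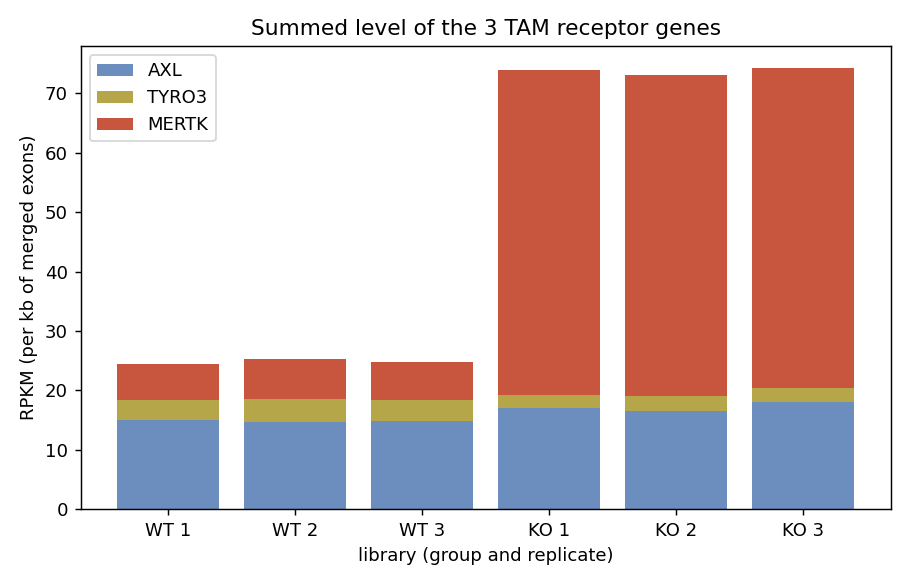
RPKM of AXL, TYRO3 and MERTK (stacked bars, y axis from 0) in each of the 6 libraries. The MERTK portion is the smaller part of the bar in the WT libraries (mean 25.9%) and most of it in the KO libraries (mean 73.4%), and the AXL portion keeps nearly the same height (14.9 and 17.2 RPKM).

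The 2 ligand genes together had 9.38 ± 0.0165 RPKM in WT and 11.8 ± 0.846 RPKM in KO. GAS6 took 18.6% ± 1.20 of that sum in WT and 19.5% ± 3.28 in KO, so the makeup of the ligands overlapped between the groups while that of the receptors did not. The ratio of summed receptors to summed ligands was 2.65 ± 0.0442 in WT and 6.27 ± 0.396 in KO (SD, n = 3 each), and 1.73 ± 0.0396 and 3.96 ± 0.188 per length of the MANE Select transcript. Over all 8 genes, TMEM87B had the highest level in both groups (21.0 RPKM in WT and 101 RPKM in KO). In WT it was followed by AXL, PROS1 (7.63 RPKM), ZC3H8 (7.32), MERTK, TYRO3, FBLN7 (2.73) and GAS6 (1.75), and PROS1 and ZC3H8 were the 1 pair of neighbours whose libraries overlapped. In KO it was followed by MERTK, ZC3H8 (19.2 RPKM), AXL, FBLN7 (14.9), PROS1 (9.51), TYRO3 and GAS6 (2.28), and TYRO3 and GAS6 overlapped. Per length of the MANE Select transcript, an alternative chosen after the data were seen, FBLN7 stood above MERTK in WT (7.79 and 6.94 RPKM) and, at 42.6 RPKM, above ZC3H8 (21.3) and AXL (18.7) in KO, and GAS6 stood above TYRO3 in KO (5.47 and 3.19 RPKM).

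TMEM87B, FBLN7 and ZC3H8 follow MERTK in that order within 356530 bases of chromosome 2 (from the MERTK start to the ZC3H8 start), with gaps of 25.7, 19.1 and 23.3 kb between the genes. The 4 genes differ in what they encode, and each was higher in every KO library than in any WT library.

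TMEM87B (ENSG00000153214, chr2:112055269-112119318, plus strand) encodes a membrane protein of the Golgi and endosome transport route. Its levels were 115, 103 and 117 CPM in WT and 550, 507 and 557 CPM in KO. Replicate 2 was the lowest library of each group, with means of 112 ± 7.45 and 538 ± 27.0 CPM (SD, n = 3 each). This is a log2 fold change of 2.27, or 4.84-fold.

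FBLN7 (ENSG00000144152, chr2:112138385-112188218, plus strand) encodes a fibulin, a secreted glycoprotein of the extracellular matrix. Its levels were 17.7, 18.2 and 17.9 CPM in WT and 95.9, 97.7 and 101 CPM in KO. The libraries of a group lay close together, with means of 17.9 ± 0.211 and 98.1 ± 2.47 CPM (SD, n = 3 each). This is a log2 fold change of 2.45, or 5.46-fold.

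ZC3H8 (ENSG00000144161, chr2:112211529-112255136, minus strand) encodes a zinc finger protein of the little elongation complex, which acts in the transcription of small nuclear RNA genes. It is the 1 gene of the 4 on the minus strand. Its levels were 45.8, 48.4 and 49.4 CPM in WT and 127, 125 and 124 CPM in KO. The difference was the smallest of the 4, with means of 47.9 ± 1.85 and 126 ± 1.46 CPM (SD, n = 3 each). This is a log2 fold change of 1.40, or 2.63-fold.

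The promoters of these genes are shown as a description, and their part in the differences between the groups was not tested. RefSeq promoter sequences (GRCh38.p14) were found for 8 of 8 genes, in 10 entries, and the 250 bases before each RefSeq start were used. RefSeq starts can differ from the starts of the gene spans given here: those bases lie wholly outside the span for MERTK, TMEM87B, FBLN7, ZC3H6, GAS6 and 1 AXL entry, in part for ZC3H8, and wholly inside it for ANAPC1, PROS1, both TYRO3 entries and the other AXL entry. The 4 promoters at the MERTK locus are followed here by those of ZC3H6, the next gene after ZC3H8, and of AXL. Bases are lower case, and capitals mark each GC box (GGGCGG on either strand, read as CCGCCC on the other), a motif bound by SP1 and its relatives. Each sequence is given 5′ to 3′ on the strand of its gene, and for ZC3H8 only the 156 bases that lie outside the annotated gene are printed.
MERTK, chr2:111898357-111898606, plus strand: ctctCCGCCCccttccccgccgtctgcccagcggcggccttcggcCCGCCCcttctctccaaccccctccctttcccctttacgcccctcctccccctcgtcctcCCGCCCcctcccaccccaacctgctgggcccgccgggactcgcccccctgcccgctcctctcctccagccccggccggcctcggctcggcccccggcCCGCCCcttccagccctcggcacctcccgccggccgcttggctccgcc
TMEM87B, chr2:112055019-112055268, plus strand: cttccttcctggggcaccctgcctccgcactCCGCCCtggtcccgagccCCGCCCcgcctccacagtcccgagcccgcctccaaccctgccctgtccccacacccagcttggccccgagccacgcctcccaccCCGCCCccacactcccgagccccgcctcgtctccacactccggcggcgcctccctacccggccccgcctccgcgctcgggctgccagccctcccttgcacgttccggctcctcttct
FBLN7, chr2:112138135-112138384, plus strand: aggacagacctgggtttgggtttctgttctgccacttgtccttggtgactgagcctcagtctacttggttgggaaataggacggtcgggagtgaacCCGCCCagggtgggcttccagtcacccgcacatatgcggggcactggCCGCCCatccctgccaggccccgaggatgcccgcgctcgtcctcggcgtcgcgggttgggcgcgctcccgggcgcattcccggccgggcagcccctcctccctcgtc
ZC3H8, chr2:112255137-112255292, minus strand: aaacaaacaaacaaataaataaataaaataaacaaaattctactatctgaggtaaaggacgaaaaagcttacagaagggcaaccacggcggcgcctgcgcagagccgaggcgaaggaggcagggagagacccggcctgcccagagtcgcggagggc
ZC3H6, chr2:112275347-112275596, plus strand: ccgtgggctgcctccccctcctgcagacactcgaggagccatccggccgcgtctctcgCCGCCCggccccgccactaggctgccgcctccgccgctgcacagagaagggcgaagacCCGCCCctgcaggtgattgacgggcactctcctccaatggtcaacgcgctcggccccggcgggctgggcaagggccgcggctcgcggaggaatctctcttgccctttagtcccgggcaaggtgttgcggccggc
AXL, chr19:41218973-41219222, plus strand: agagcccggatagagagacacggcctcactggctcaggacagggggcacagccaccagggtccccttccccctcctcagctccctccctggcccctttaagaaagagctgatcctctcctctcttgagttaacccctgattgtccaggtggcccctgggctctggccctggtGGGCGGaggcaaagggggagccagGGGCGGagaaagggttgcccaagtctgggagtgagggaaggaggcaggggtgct

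The MERTK promoter held 4 GC boxes, and 7.63% of all 35116 promoters of that length held 4 or more. The TMEM87B promoter held 3 and those of FBLN7 and ZC3H8 held 2 each, in the case of ZC3H8 inside the annotated gene and so not among the printed bases. ZC3H6, whose groups overlapped, also held 2, and ANAPC1 held 1. Of the other genes GAS6 held 3, PROS1 held 2, and the entries of TYRO3 and AXL with the most held 3 and 2. All 8 genes thus had an entry with a GC box, but the second entries of TYRO3 and AXL held 0. The motif was found in 42.6% of all promoters, a share per entry and not per gene. Among the windows that lie wholly before the gene, those of MERTK, TMEM87B and FBLN7, which were called, and those of ZC3H6, GAS6 and AXL, which were not, all held it. CpG pairs numbered 25 in the MERTK promoter, 23 in that of TMEM87B, 21 in that of FBLN7 and 24 in that of ZC3H8, beside a median of 11 over all promoters, and ZC3H6 had 27. The TEAD motif GGAATG (in 11.9% of all promoters) was found once in FBLN7 and once in the second AXL entry. The E-box CACGTG (6.34%), the AP-1 motif TGACTCA (4.20%) and TATAAA (10.7%), searched on both strands, were in none of the 12 entries for these genes, ANAPC1 and ZC3H6, and CCAAT (32.0%) was found in ZC3H6 alone.

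How far along the chromosome the difference reached was asked of the other genes within 1 Mb of the MERTK start. The set was drawn around MERTK with earlier results known, so the calls of the genes that flank it are not independent of that choice. Of 46 such genes listed, 15 passed the filter, of which 3 were higher in KO (20.0%, beside 8.30% of all genes tested), 1 was lower (6.67%, beside 7.73%) and 11 were not called. The genes next to the 4 on each side were not called. ANAPC1, a subunit gene of the anaphase-promoting complex that lies 13.9 kb before MERTK, had 65.5, 77.0 and 68.5 CPM in WT and 79.6, 74.1 and 76.1 CPM in KO. The groups overlapped, with a log2 fold change of 0.12 (SE 0.0574, edgeR adjusted p = 0.0735). ZC3H6, a zinc finger gene that starts 20.5 kb after ZC3H8, had 15.2, 12.1 and 11.9 CPM in WT and 15.7, 11.6 and 14.8 CPM in KO. Its groups overlapped too, with a log2 fold change of 0.08 (SE 0.103, edgeR adjusted p = 0.531). The pseudogene EEF1E1P1, between ANAPC1 and MERTK, had 0.511, 0.501 and 0.180 CPM in WT and 0.773, 0.743 and 1.01 CPM in KO. Its groups did not overlap, but rested on 14, 15 and 2 counts in WT and 19, 20 and 18 in KO. The log2 fold change was 0.86 (SE 0.325, edgeR adjusted p = 0.0208), under the fold threshold.

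**Figure D3:**
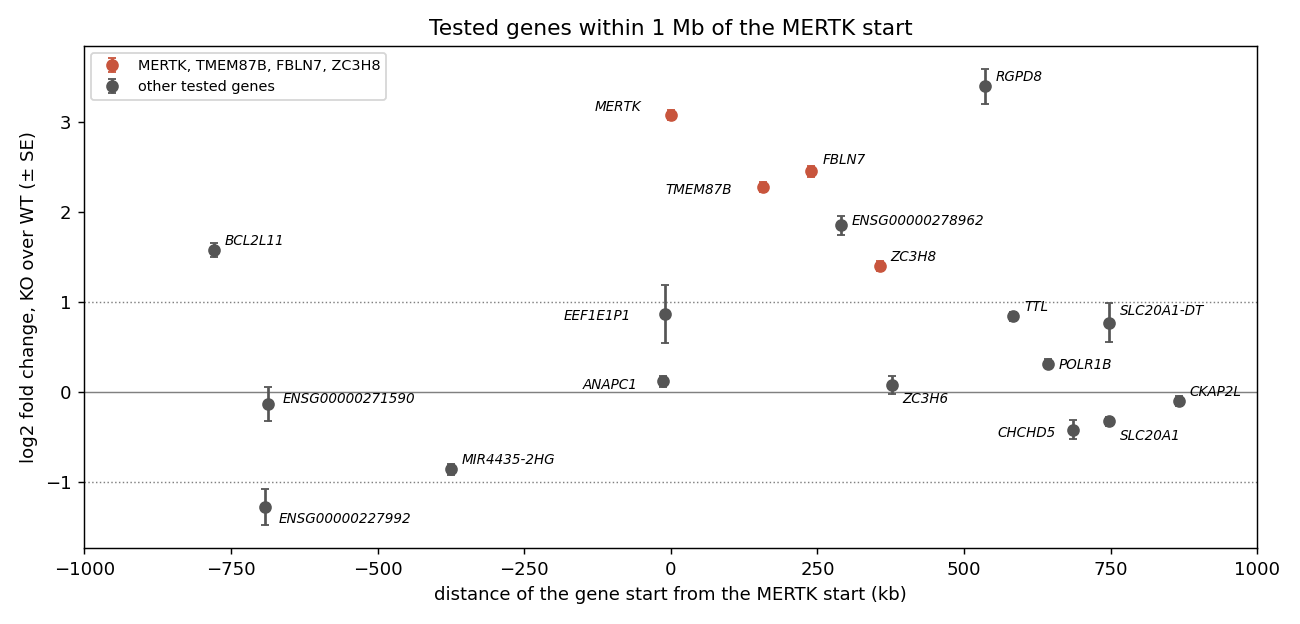
Log2 fold change of KO over WT (y axis, bars are the SE derived from the edgeR test) against the distance of each gene's start from the MERTK start in kb (x axis), for the tested genes within 1 Mb. MERTK, TMEM87B, FBLN7 and ZC3H8 are in red and the 15 others in grey, and dotted lines mark 1 and -1. ANAPC1 (0.12) and ZC3H6 (0.08), on either side of the red genes, lie near 0, and the pseudogene EEF1E1P1 (0.86), between ANAPC1 and MERTK, lies under the upper line.

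Of the 3 higher genes, ENSG00000278962, an unnamed transcript awaiting annotation, starts 145 bases after the end of FBLN7 on the same strand. It had 6.24, 4.81 and 5.76 CPM in WT and 21.3, 17.9 and 21.2 CPM in KO, a log2 fold change of 1.85 (SE 0.103, edgeR adjusted p = 1.14e-16). It lies among the 4 genes, so 5 tested genes in a row were higher. Whether the reads of ENSG00000278962 are separate from those of FBLN7 was not tested, so it may not count as a gene of its own. BCL2L11, which encodes the cell death protein BIM and starts 779 kb before MERTK, had 9.67, 10.8 and 9.18 CPM in WT and 28.8, 30.2 and 30.8 CPM in KO, a log2 fold change of 1.57 (SE 0.0781, edgeR adjusted p = 4.87e-18). RGPD8, a gene of the RANBP2-like family 536 kb after MERTK, had 0.730, 0.567 and 0.360 CPM in WT and 6.55, 6.69 and 5.56 CPM in KO (log2 fold change 3.39, SE 0.195, edgeR adjusted p = 2.51e-16). It has near-identical copies elsewhere on chromosome 2, of which RGPD1, RGPD2 and RGPD5 were at 0 in every library, so its reads are uncertain, and RANBP2 itself had a log2 fold change of -0.03. The 1 lower gene was the pseudogene ENSG00000227992 (2.26, 2.57 and 2.43 CPM in WT, 1.02, 0.929 and 1.07 CPM in KO, log2 fold change -1.28, edgeR adjusted p = 2.03e-06), and after thinning each library to the depth of the shallowest it was no longer called (-0.88).

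The 8 remaining neighbours lay between -0.86 and 0.84 on the log2 scale. The long RNA gene MIR4435-2HG, which overlaps BCL2L11 on the opposite strand, had the lowest value (-0.86) and TTL, which encodes tubulin tyrosine ligase, the highest (0.84, from 201 ± 3.65 to 360 ± 5.70 CPM, SD, n = 3 each). SLC20A1-DT was at 0.77 and POLR1B, a subunit gene of RNA polymerase I, at 0.32. The phosphate transporter gene SLC20A1 was at -0.33, CHCHD5 at -0.42, ENSG00000271590 at -0.14 and the spindle gene CKAP2L at -0.10. Within 2 Mb, 28 such genes were tested, with 3 higher and 1 lower. That is 10.7% higher, beside 8.30% of all genes tested, and 3.57% lower, beside 7.73%.

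The loci of the other receptors and ligands were looked at in the same way. Around AXL, 1 of 42 tested genes was higher (2.38%, beside 8.30% of all genes tested) and 0 were lower (beside 7.73%). The higher gene, B3GNT8, had 1, 4 and 0 counts in WT and 19, 21 and 9 in KO, and its log2 fold change of 3.18 became 4.48 without WT replicate 2. Around TYRO3, 1 of 41 was higher (2.44%), the pseudogene ISCA1P4 with a log2 fold change of 1.32, and 2 were lower (4.88%), RHOV (-1.03) and the pseudogene CIBAR1P1 (-2.14). The RHOV call was lost without WT replicate 3 (-0.93), without KO replicate 3 (-0.95) and with upper-quartile scaling. Around GAS6, 0 of 18 were higher and 4 were lower (22.2%, beside 7.73% of all genes tested), namely MCF2L-AS1 (0 counts in all KO libraries, at least 3.92-fold lower), ENSG00000276248 (-1.20), TMEM255B (-2.35) and RASA3 (-1.57), while GAS6 itself was at 0.41. TMEM255B had 15, 17 and 5 counts in WT and 1, 2 and 4 in KO, and was at -3.10 without KO replicate 3, and ENSG00000276248 was at -1.79 after thinning to equal depth. Around PROS1, 0 of 3 tested genes were called by edgeR, voom or DESeq2, and 2 of the 3 had an unadjusted edgeR p under 0.05, beside 66.7% of all genes tested. Next to each of AXL, TYRO3, GAS6 and PROS1, at most 1 tested gene within 1 Mb was higher. The run at MERTK consists mostly of genes chosen with this contrast in view, and PROS1 had only 3 tested neighbours. Nothing is therefore read from a difference between the loci.

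The wider TAM pathway was read in 7 lists of 81 genes, of which 70 were tested, 8 were higher in KO (11.4%, beside 8.30% of all genes tested), 11 were lower (15.7%, beside 7.73%) and 51 were not called. Their median log2 fold change was -0.05, beside 0.00 over all genes tested. Every pathway value below comes from the same edgeR fit, and the largest adjusted p among the 19 called genes was 2.89e-09 (PPARG). No test of the lists was made.

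Of the genes that carry the signal from the receptors, 23 were tested. Of these, 2 were higher (8.70%, beside 8.30% of all genes tested) and 1 was lower (4.35%, beside 7.73%), with a median of 0.01. SHC1, an adaptor that links receptor tyrosine kinases to RAS, had 720, 697 and 676 CPM in WT and 1601, 1639 and 1724 CPM in KO (log2 fold change 1.25). PIK3R1, the regulatory subunit of PI3 kinase, had a mean of 28.8 ± 2.34 CPM in WT, and one of 70.8 ± 2.83 CPM in KO (1.30). SOCS3, a feedback inhibitor of cytokine signalling that TAM receptors are known to induce in immune cells, had 31.2, 30.2 and 33.1 CPM in WT and 0.977, 0.929 and 0.337 CPM in KO (-5.30). A link between SOCS3 and MERTK was not tested, and with 2 groups of libraries every called gene differs along the same split.

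Of the other TAM ligands only TUB was tested (log2 fold change -0.04), and TULP1 and LGALS3 had at most 4 counts in any library. All 4 genes of vitamin K carboxylation, which GAS6 and protein S need to bind phosphatidylserine, were tested, and 0 were called by edgeR, voom or DESeq2. On the adjusted edgeR p alone 3 of the 4 were lower, beside 32.0% of all genes tested, and the same number had an unadjusted p under 0.05, beside 66.7%. Of the 4, VKORC1L1, a vitamin K epoxide reductase, was the farthest from 0 (-0.46). Of 5 tested genes of receptor shedding, the release of receptor ectodomains by surface proteases, TIMP1, an inhibitor of metalloproteinases, was higher (319 ± 10.6 CPM in WT and 1209 ± 39.5 CPM in KO, log2 fold change 1.92). RHBDF1, a regulator of the protease ADAM17, was lower (56.1 ± 1.74 and 27.1 ± 2.35 CPM, -1.05), a call lost without KO replicate 3 (-0.98). TIMP1 and RHBDF1 are each 20.0% of the tested genes of that list, beside 8.30% higher and 7.73% lower over all genes tested.

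Of 9 genes of phosphatidylserine exposure, 1 was called higher (11.1%, beside 8.30% of all genes tested) and 0 lower (beside 7.73%). ATP8A1, a flippase that moves phosphatidylserine to the inner leaflet of the membrane, had 1.93, 1.94 and 0.901 CPM in WT and 23.0, 21.4 and 24.0 CPM in KO (log2 fold change 3.69). Of the other engulfment receptors and bridging proteins, 15 of 21 genes were tested. Of these, 1 was higher (6.67%, beside 8.30% of all genes tested) and 6 were lower (40.0%, beside 7.73%). The median was -0.20, the same with genes near 0 set to their bound. GULP1, an adaptor of engulfment receptors, was the higher gene (46.9 ± 0.450 and 129 ± 7.58 CPM, 1.46).

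The lower genes included both chains of an integrin that takes up dying cells, ITGAV (2022 ± 59.2 and 506 ± 29.4 CPM, 3.99-fold lower in KO) and ITGB3 (36, 32 and 14 counts in WT and 2, 2 and 1 in KO, at least 7.20-fold lower by the floor of 3 counts per library). Genes of the list that were not called include the integrin chain ITGB5 (57.4 ± 2.50 and 64.5 ± 0.739 CPM, log2 fold change 0.16). MFGE8, a bridging protein, was not called either (113 ± 6.07 and 196 ± 9.35 CPM, 0.80). On the adjusted edgeR p alone, 4 of the 15 tested genes of the list were higher and 7 were lower. Over all genes tested, 31.9% were higher and 32.0% lower by that measure. THBS1, a bridging matrix protein, was lower (57.5 ± 4.92 and 14.7 ± 0.369 CPM, log2 fold change -1.97), as was LRP1, an engulfment receptor (70.3 ± 5.10 and 26.9 ± 2.03 CPM, -1.38). The scavenger receptor gene CD36 had 163, 180 and 79 counts in WT and 1 in every KO library, a level at least 37.7-fold lower. The phosphatidylserine-binding annexin gene ANXA1 had 673, 796 and 251 counts in WT and likewise 1 in every KO library, a level at least 146-fold lower.

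Of 13 genes described as regulators of TAM genes, 3 were higher (23.1%, beside 8.30% of all genes tested) and 3 were lower (23.1%, beside 7.73%). Their median was -0.05. NR3C1, the glucocorticoid receptor, known to induce MERTK in macrophages, had 3, 2 and 1 counts in WT and 573, 642 and 436 counts in KO, at least 88.4-fold higher. MITF, a transcription factor of pigment cells and osteoclasts, had a mean of 1.80 ± 0.0759 CPM in WT, and one of 20.4 ± 1.15 CPM in KO (log2 fold change 3.51), and SP1, whose motif is the GC box shown above, had 140 ± 3.27 and 347 ± 25.1 CPM (1.31). TEAD1, a partner of YAP known for driving AXL, had 114 ± 9.89 and 24.2 ± 2.12 CPM (-2.25), and YAP1 was not called (-0.16). HIF1A (109 ± 7.21 and 52.7 ± 1.11 CPM, -1.06) and PPARG (5.49 ± 0.563 and 2.26 ± 0.211 CPM, -1.30) were also lower. A link between any of these regulators and the levels of the TAM genes was not tested.

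**Figure D4:**
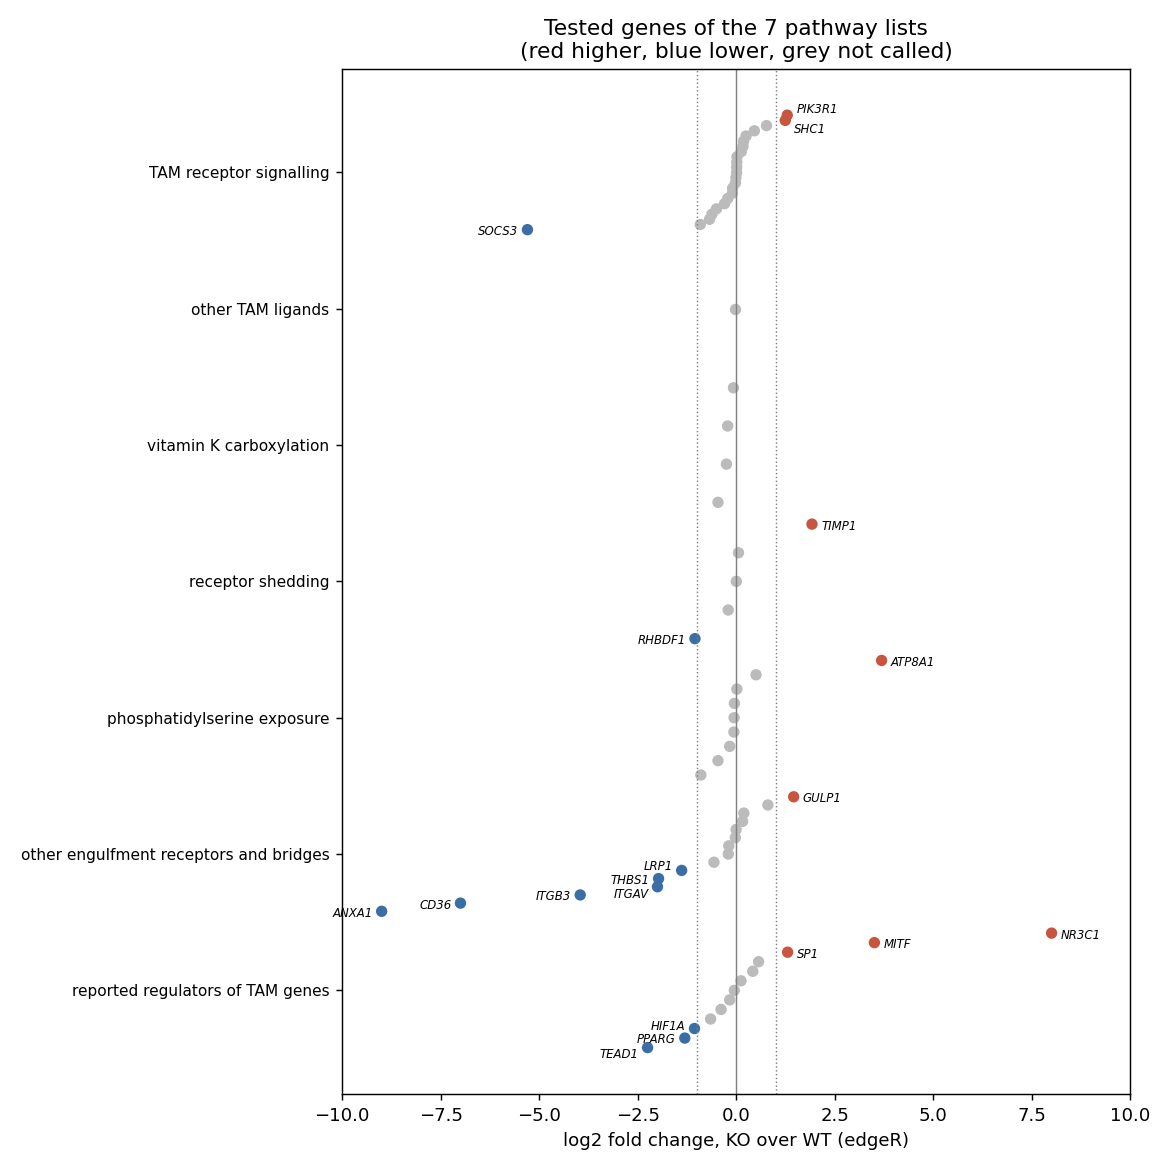
Log2 fold change of KO over WT (x axis) for the 70 tested genes of the 7 pathway lists (rows, ordered by value within a list); red genes were called higher (8), blue genes lower (11), and dotted lines mark 1 and -1. The fitted values of ANXA1, CD36, ITGB3 and NR3C1 depend on a prior count because 1 group is near 0, and the bounds in the text replace them.

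Likeness of pattern was measured as Pearson's r of log2 CPM with MERTK over the 6 libraries, which share the split into 2 groups. Of 16197 other genes, 2382 (14.7%) had an r above 0.95. FBLN7 (0.99968), ZC3H8 (0.99940) and TMEM87B (0.99704) were among them, and the other genes of the set had values of 0.939 (AXL), 0.888 (GAS6), 0.856 (PROS1) and -0.969 (TYRO3). The 5 genes most like MERTK were APLP2, ZNF423, SMARCA2, FAS and BEAN1 (r of 0.99985 to 0.99974). They lay on chromosomes 11, 16, 9, 10 and 16, with log2 fold changes of 1.14, 1.48, 6.56, 4.24 and 5.76, and their values of r, like those of FBLN7 and ZC3H8, came from 2 tight groups of 3.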

How the data were processed

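Raw read counts per gene were analysed from 3 WT and 3 KO libraries, grouped by the genotype in the labels. Per the labels, the authors sequenced stranded libraries as single-end reads of 75 bases, mapped them to GRCh38 with STAR and counted them with HTSeq, and the deposited counts were not normalized. Versions, the annotation release and the strand setting of the counting are not given in the sources used here. Gene names, positions and lengths were taken from GENCODE 44, which matched 93.1% of the listed identifiers.

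Genes were filtered with filterByExpr (minimum count 10, minimum total 15), scaled by TMM and tested with the two-sided quasi-likelihood test of edgeR 4.0.16 in R 4.3.3, with Benjamini-Hochberg adjustment over all 16198 genes kept. Genes were called where the adjusted p was under 0.05 and the log2 fold change passed 1 in size. Each SE is the size of the log2 fold change divided by the square root of the F statistic of the edgeR test. Alternatives were limma 3.58.1 (voom), DESeq2 1.42.0, other scalings and filters, thinning to the smallest total, and leaving out each library. The fits were tested on simulated data first. Totals of 11098400 to 30899045 counts set the precision, and bounds from 3 counts cover counting error only.

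The 8 genes, the pathway lists and the markers were chosen with earlier results of these data known. Named are all 8 genes, every tested neighbour of MERTK within 1 Mb, called genes near the other 4 TAM genes, called pathway genes (or the one with the largest change where a list had none), the 5 genes most like MERTK, and rows named after a member.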

Additional observations from a re-analysis of the deposited data

How the results depend on the processing

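The 8 genes kept their direction and their side of the fold threshold under all 13 alternatives each (104 values in all). Over the 6 fits without 1 library, the log2 fold changes were 3.03 to 3.11 (MERTK), 2.21 to 2.32 (TMEM87B), 2.43 to 2.46 (FBLN7), 1.36 to 1.41 (ZC3H8), 0.17 to 0.23 (AXL), -0.63 to -0.50 (TYRO3), 0.34 to 0.47 (GAS6) and 0.23 to 0.39 (PROS1). With at least 10 counts required in every library, 568 genes were higher and 684 lower among 13405 tested, fewer than the 1345 and 1252 of 16198. With the adjusted p alone the counts were 5165 higher (31.9% of all genes tested) and 5188 lower (32.0%). By that measure 11 of 15 MERTK neighbours (7 higher, 4 lower) and 49 of 70 pathway genes (21 higher, 28 lower) passed. Without 1 library, 1377 to 1502 genes were higher and 1269 to 1369 lower, 4 neighbours were called each time, and 18 to 20 pathway genes were called. The log2 fold change of ZC3H6, which was not called, ran from -0.023 (without KO replicate 1) to 0.21, and was -0.012 without WT replicate 2, and the cause was not tested. Levels per length depended on the length used, a choice added after the data were seen: 14 of 16 group means moved by more than 1 SD with the MANE Select length. No paired analysis was possible because the labels give the WT and KO libraries no shared replicate numbers. GAS6 and the genes under 1 CPM had the fewest counts behind them, and WT replicate 3 was the shallowest library.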

Other observations

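Along all chromosomes, tested genes called higher in KO stood next to each other in 46 runs of 3 or more, of which 27 held 3 genes, 12 held 4, 4 held 5, 2 held 6 and 1 held 11. The run of MERTK, TMEM87B, FBLN7, ENSG00000278962 and ZC3H8 is 1 of the 4 runs of 5. Runs were found after the data were seen, neighbouring genes can overlap or share reads, and no test was made of their number.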
